A study of Mus musculus with 14 samples.

Results

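Skeletal muscle lay beside the bone in the leg bone section of a mouse at postnatal day 8, and 108 spots of that section were taken as muscle. They were chosen by measured values of these same data, as the 10% of spots with the largest rule share, which is the share of a spot's UMIs that came from Acta1, Ckm and Myl1, out of 1085 spots that lay in tissue and held at least 1000 detected genes. Acta1 encodes skeletal muscle actin, Ckm the muscle creatine kinase and Myl1 a fast myosin light chain. The 542 spots in the lower 50% of the rule share, which cover bone, cartilage and marrow, served as reference, and the 435 spots between were used only where distance is described. In the whole series, 15985 spots from 14 sections passed the same filter. The other 13 sections are fetal livers at E13.5 and E14.5, spleens, and bone marrow of adult mice, 1 of them at 89 weeks. They include fetal livers at E14.5 and spleens from both wild-type and C1qa knockout mice.

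The study mapped erythroid niches with 10x Genomics Visium, an array of barcoded spots on which pairs of probes report messenger RNA in formalin-fixed, paraffin-embedded tissue. A Visium spot is a small region that can hold parts of several cells. The mouse was wild type (C57BL/6), came from the Jackson Laboratory and carried no stated treatment. This age is represented by 1 section of 1 mouse, so spots are not replicates, no difference between muscle and reference spots was tested, and every interval below covers counting error only.

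Skeletal muscle fibres are long fused cells whose sarcomeres slide myosin filaments along actin filaments when calcium leaves the sarcoplasmic reticulum. Around birth in rodents, fibres replace embryonic and perinatal myosin heavy chains by adult fast or slow ones, and the fetal gamma subunit of the acetylcholine receptor gives way to the adult epsilon subunit at the nerve contact. Satellite cells, which carry Pax7, add nuclei to the growing fibres through the regulators Myod1 and Myog and the fusion proteins Mymk and Mymx.

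The rule share of the muscle spots ran from 0.675% to 5.83%, with a median of 3.32%, against a median of 0.0263% and a highest value of 0.0944% in reference spots. The 3 muscle spots nearest to the threshold had rule shares of 0.695%, 0.680% and 0.675%, and the 3 spots just below it had 0.671%, 0.651% and 0.648%. No gap therefore separated the edge of the muscle from the spots beside it, and 62 of the muscle spots lay at 3% or more. Muscle spots held 2275 to 32750 UMIs (median 16704.5) and reference spots 1943 to 97432 (median 23469.5). Because the rule fixed how much muscle RNA each side could hold, all ratios below describe the chosen spots and support no claim about muscle against bone.

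**Figure D1:**
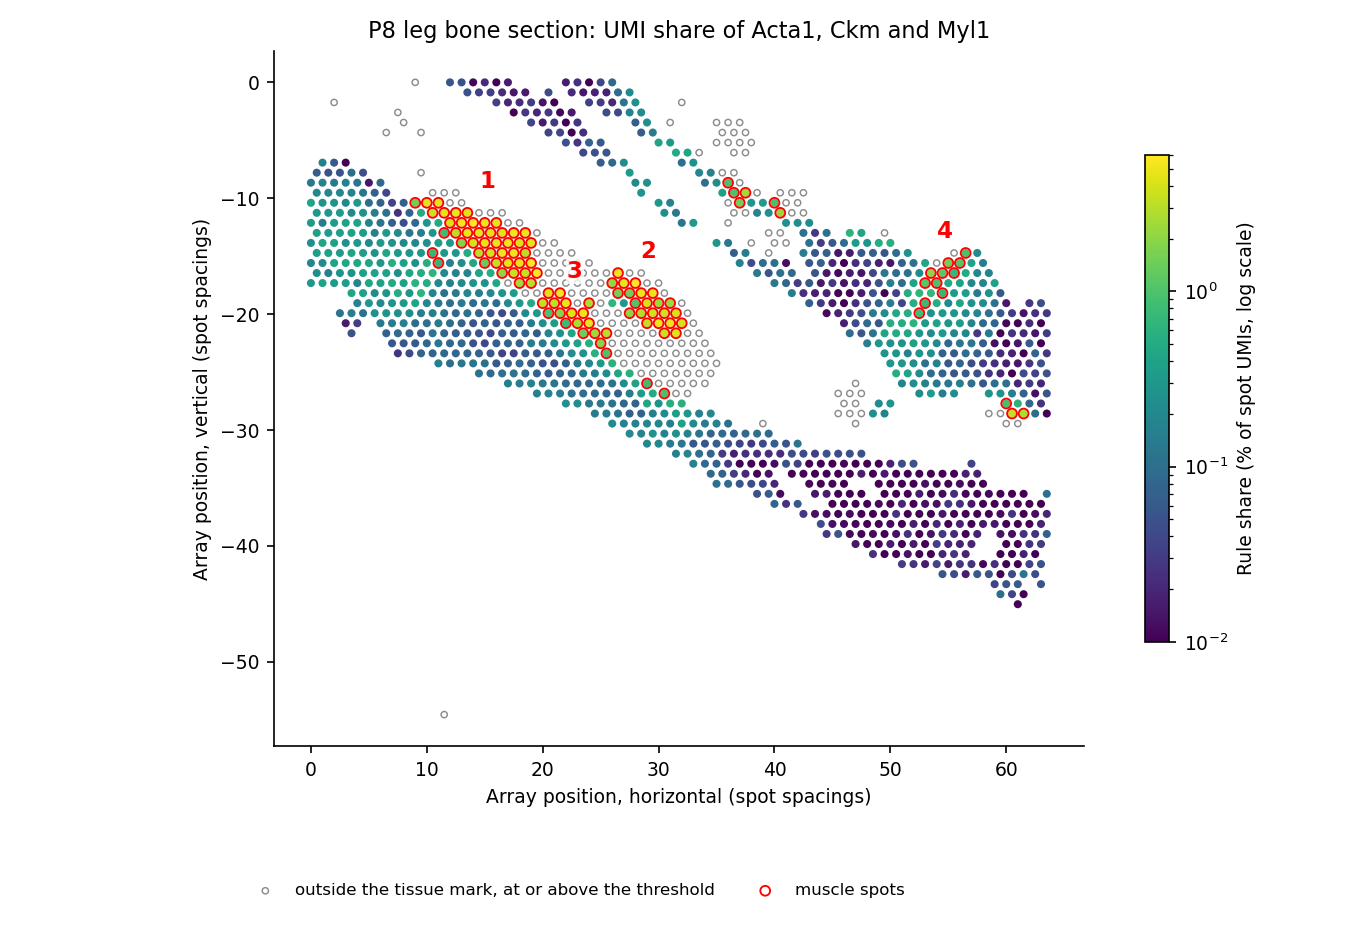
Map of the section on the spot array, both axes in spot spacings, with the colour giving the rule share in percent of spot UMIs on a log scale (values under the scale are drawn at its lower end). Red rings mark the 108 muscle spots, numbers mark the 4 largest patches, and open grey rings mark 167 spots outside the tissue mark with a rule share at or above 0.675%.

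The muscle spots formed 11 connected patches on the array. The 4 largest held 43, 23, 18 and 9 spots, and the other 7 held 1 to 4 spots each, 15 in all. Patches 1, 2 and 3 lay near each other, between columns 18 and 64 of the array, while patch 4 lay apart between columns 106 and 113. Only spots inside the tissue mark were joined into patches. Spots outside it and past the threshold lay among patches 1, 2 and 3. Examples are 3.90% at row 20 and column 42, and 3.12% at row 24 and column 52. Whether these patches are parts of 1 muscle cut by the mark was not tested. Patch 4 was the shallowest, with a median of 3483 UMIs per spot and rule shares of 0.695% to 2.04%. Patch 1 held 37 of the 62 spots at 3% or more, patch 2 held 15, patch 3 held 9 and the smaller patches held 1. None of the muscle spots was among the 108 spots richest in cartilage genes or the 108 richest in osteoblast genes. Each of these groups is 10% of the 1085 spots. Spots with a large rule share have fewer UMIs left for other genes, so the lack of overlap was in part fixed by the choice.

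Other muscle genes that the rule did not use were also found in these spots, which is a description, since the choice of spots bears on all of their genes. Levels are given as CPM, the counts of a gene per 1000000 counts of the spot, or of the summed spots, without the rule genes. Mylpf, the fast regulatory light chain, was detected in every muscle spot, at 1790 CPM in the lowest, 17840 in the median and 34366 in the highest spot, and 106 of the 108 lay above the highest reference spot (2632 CPM). Tnnc2, the fast calcium sensor of the thin filament, ran from 1321 CPM through a median of 14735 to 24876 in muscle spots, all above the highest reference spot at 1091 CPM. Ttn, the giant spring of the sarcomere, ran from 263 CPM through 4203 to 8675, and 100 spots lay above the highest reference spot. Des, the intermediate filament of muscle, was absent from 1 muscle spot and had a median of 2435 CPM there, against a median of 0 CPM in reference spots.

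Counts were then summed over muscle and over reference spots with the 3 rule genes left out, scaled to CPM and divided, and the ratio is given as log2. Of 13763 genes with at least 10 counts in both sums together, 2430 (17.7%) were at least 2-fold higher and 1762 (12.8%) at least 2-fold lower in muscle spots, with a median log2 ratio of 0.10 over all of them. The balance of the counts depended on the scaling: with the median ratio of genes at 100 or more counts set to 1, the median over all genes moved to -0.18 and the numbers became 1710 higher and 2453 lower. Directions are therefore given below only for genes past 2-fold. In summed spots, fewer cells of a type and less RNA per cell cannot be told apart.

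A group of 250 genes (1.82%) was at least 32-fold higher in muscle spots, of which 103 belong to the lists used here and 147 to none. These genes took 14.8% of the counts of muscle spots and 0.177% of those of reference spots. Their log2 ratios crowded near a common value, with a median of 6.12 and 130 of the 250 between 6 and 7. The rule genes themselves stood at 6.72 for Acta1, 6.74 for Ckm and 6.63 for Myl1. Reference spots thus held some RNA of the rule genes too, and ratios near this value are not read as an order.

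**Figure D2:**
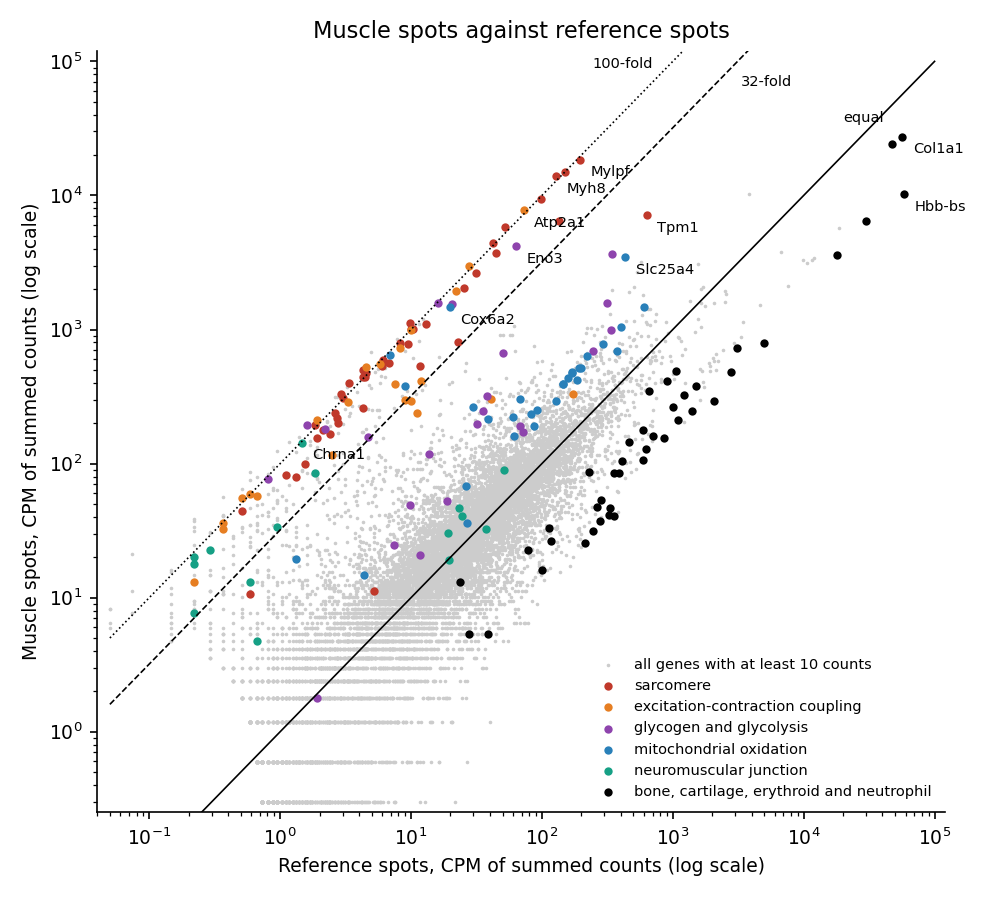
CPM of summed counts in reference spots (horizontal) and muscle spots (vertical), both on log scales, with 1 point for each of 13763 genes and 6 groups of lists in colour. Genes at 0 are drawn at the lower edge. Sarcomere and calcium handling genes lie along the upper diagonal, while mitochondrial genes lie between it and the line of equality and bone, cartilage and blood genes lie below that line.

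The developmental myosin heavy chains were both present. Myh8, the perinatal form, had 23381 UMIs in muscle spots and 1763 in reference spots, a log2 ratio of 6.75 (95% interval 6.68 to 6.82). It was detected in every muscle spot, from 1106 CPM through a median of 13397.5 to 23961, and all of them lay above the highest reference spot at 1071 CPM. Myh3, the embryonic form, had 1346 UMIs against 113 and was missing from 9 muscle spots, with a median of 667 CPM and a highest value of 3435. Among the adult fast forms, Myh4 (type IIb) had 9809 UMIs, Myh1 (type IIx) 6274 and Myh2 (type IIa) 327. Myh4 was missing from 3 muscle spots and reached 16541 CPM in the highest, and Myh1 was present in all of them, from 206 to 19716 CPM. The slow form Myh7 had 669 UMIs in muscle spots and 46 in reference spots.

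These counts were turned into shares of the 41806 UMIs of the 6 genes in muscle spots. A share of UMIs depends on how well each probe works, so shares are compared between places and not between genes. Myh3 and Myh8 together held 59.1% (58.7 to 59.6), Myh8 alone 55.9% (55.4 to 56.4) and Myh3 3.22% (3.05 to 3.39). Myh4 held 23.5% (23.1 to 23.9), Myh1 15.01% (14.7 to 15.4), Myh2 0.782% (0.700 to 0.871) and Myh7 1.60% (1.48 to 1.73). The few myosin UMIs of the reference spots, 3277 in 542 spots, gave 57.2% (55.5 to 58.9) from Myh3 and Myh8, 21.9% (20.5 to 23.4) from Myh4, 18.7% (17.4 to 20.1) from Myh1 and 1.40% (1.03 to 1.87) from Myh7. The interval of Myh1 lay above that of muscle spots. Myh7b, a slow-type form of heart and extraocular muscle, had only 18 UMIs in muscle spots. Of the nonmuscle myosins, Myh9 at -0.42 and Myh10 at 0.70 lay within 2-fold and Myh14 was higher at 2.35 on 34 UMIs. Myh11 of smooth muscle was higher at 2.75 on 55 UMIs, 42 of them in patch 2.

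The windows around the start sites of Myh3, Myh8, Myh1 and Myh4, and of the 2 acetylcholine receptor subunits described below, are shown. These genes mark the developmental stage of the fibres. The windows are RefSeq promoters of build GRCm38.p6. They run from 250 bases before to 50 bases after the start, 5′ to 3′ on the strand of the gene. Both strands were searched for the E-box CAGCTG, the N-box CCGGAA, the MEF2 consensus and the CArG box, and capitals mark every match. Myh3 (chr11:67078050-67078349), Myh1 (chr11:67199852-67200151), Myh4 (chr11:67237562-67237861), Myh8 (chr11:67276874-67277173) and Chrng (chr1:87205561-87205860) lie on the plus strand and Chrne (chr11:70619145-70619444) on the minus strand.
Myh3: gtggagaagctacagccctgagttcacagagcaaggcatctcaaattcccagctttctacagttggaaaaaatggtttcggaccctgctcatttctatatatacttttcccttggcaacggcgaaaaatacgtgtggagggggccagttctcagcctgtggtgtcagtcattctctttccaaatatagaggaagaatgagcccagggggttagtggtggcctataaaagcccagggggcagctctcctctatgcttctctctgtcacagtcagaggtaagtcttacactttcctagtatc
Myh8: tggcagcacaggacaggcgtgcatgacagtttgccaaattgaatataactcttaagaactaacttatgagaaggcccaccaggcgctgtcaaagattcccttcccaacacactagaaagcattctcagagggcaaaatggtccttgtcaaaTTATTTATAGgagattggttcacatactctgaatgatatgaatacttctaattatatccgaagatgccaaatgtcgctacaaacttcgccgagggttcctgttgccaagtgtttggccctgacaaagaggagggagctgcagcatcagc
Myh1: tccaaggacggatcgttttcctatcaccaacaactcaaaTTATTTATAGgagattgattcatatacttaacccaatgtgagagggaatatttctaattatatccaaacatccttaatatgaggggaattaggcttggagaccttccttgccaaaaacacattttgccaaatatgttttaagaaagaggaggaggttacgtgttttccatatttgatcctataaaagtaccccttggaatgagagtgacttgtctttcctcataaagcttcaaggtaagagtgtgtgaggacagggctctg
Myh4: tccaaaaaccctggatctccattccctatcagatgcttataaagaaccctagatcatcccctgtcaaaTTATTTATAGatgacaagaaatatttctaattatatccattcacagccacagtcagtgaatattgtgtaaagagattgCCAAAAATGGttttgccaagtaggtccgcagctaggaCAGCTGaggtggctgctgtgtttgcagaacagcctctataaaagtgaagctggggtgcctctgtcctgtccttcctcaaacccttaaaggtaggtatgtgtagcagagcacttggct
Chrng: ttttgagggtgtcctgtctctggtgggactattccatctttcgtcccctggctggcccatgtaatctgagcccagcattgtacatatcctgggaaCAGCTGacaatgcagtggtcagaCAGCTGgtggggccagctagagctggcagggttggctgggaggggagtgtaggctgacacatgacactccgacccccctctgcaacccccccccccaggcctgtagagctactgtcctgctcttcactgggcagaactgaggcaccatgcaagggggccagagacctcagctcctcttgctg
Chrne: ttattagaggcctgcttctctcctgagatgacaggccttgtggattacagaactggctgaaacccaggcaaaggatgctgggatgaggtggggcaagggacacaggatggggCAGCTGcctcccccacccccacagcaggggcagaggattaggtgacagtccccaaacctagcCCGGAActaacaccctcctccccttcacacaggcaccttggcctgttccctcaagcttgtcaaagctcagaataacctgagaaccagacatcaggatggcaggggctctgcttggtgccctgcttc

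Capitals in Myh8 and Myh1 are MEF2 matches, which begin at base 152 and base 40 of the windows counted from 1 at the 5′ end. Myh4 had a MEF2 match at base 69, a CArG box at base 147 and an E-box at base 184, and none of these overlapped. Myh3 held none of the 4 motifs, and neither did the window of Myh2, which was searched but is not printed. Chrng held E-boxes at bases 96 and 119, and Chrne an E-box at base 113 and an N-box at base 175. The MEF2 matches of Myh1 and Myh8 lay in a run of 22 bases that the windows share, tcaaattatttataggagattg. Myh1 and Myh4 shared a run of 20 bases, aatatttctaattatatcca, which began at base 86 in Myh1 and base 88 in Myh4. The Myh2 window held it too, within runs of 21 bases shared with Myh1 and with Myh4.

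Promoter windows were also found by symbol for 178 of the 250 genes at least 32-fold higher and for 10767 genes with at least 10 counts. A gene was counted as holding a motif if any of its windows did. The E-box was held by 69 of the 178 (38.8%), against 18.5% of the 10767 and 18.3% of all 27025 genes with a window. The MEF2 consensus was in 30 of the 178 (16.9%), against 2.29% and 3.70%. The CArG box was in 8 (4.49%), against 1.58% and 1.81%, and the N-box in 4 (2.25%), against 28.9% and 16.7%. Base composition differed as well, with a median of 54.8% G and C and 6 CG pairs per window in the 178 genes and 60.7% and 20 in the 10767, and its part in these shares was not tested. A match describes letters in a window and is not evidence of binding.

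Myosin makeup differed between the patches. Myh4 held 31.4% (30.8 to 31.99) of the myosin UMIs of patch 1, 12.6% (11.9 to 13.2) of patch 2 and 15.4% (14.6 to 16.2) of patch 3. Myh1 went the other way, with 6.26% (5.95 to 6.58), 30.6% (29.6 to 31.5) and 18.9% (18.1 to 19.9). The intervals of patch 1 stood apart from those of patches 2 and 3 for both genes. The developmental share was 61.6% (61.0 to 62.3) in patch 1, 51.6% (50.6 to 52.6) in patch 2 and 62.9% (61.8 to 64.0) in patch 3. Patch 4 held only 261 myosin UMIs, of which 57.9% (51.6 to 63.9) came from Myh3 and Myh8, 31.4% from Myh1 and 4.21% from Myh4. In the 15 spots of the smaller patches, Myh1 held 31.9% (29.7 to 34.3) and Myh4 11.1% (9.58 to 12.7).

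Single spots showed the same split. Among the 37 spots of patch 1 at a rule share of 3% or more, the Myh1 share ran from 2.05% through a median of 5.53% to 16.02%, and among the 15 such spots of patch 2 from 11.1% through 24.0% to 48.4%. The Myh4 share ran from 13.1% through 28.8% to 51.7% in patch 1 and from 0.671% through 14.3% to 30.4% in patch 2. The ranges overlapped for both genes, for Myh4 over a stretch that holds the medians of both patches. Within a patch the Myh4 and Myh1 shares moved in opposite directions, with Spearman's rho of -0.37 over 37 spots of patch 1, -0.58 over 15 spots of patch 2 and -0.73 over 9 spots of patch 3. The shares of a spot are parts of 1 total, which alone links them.

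**Figure D3:**
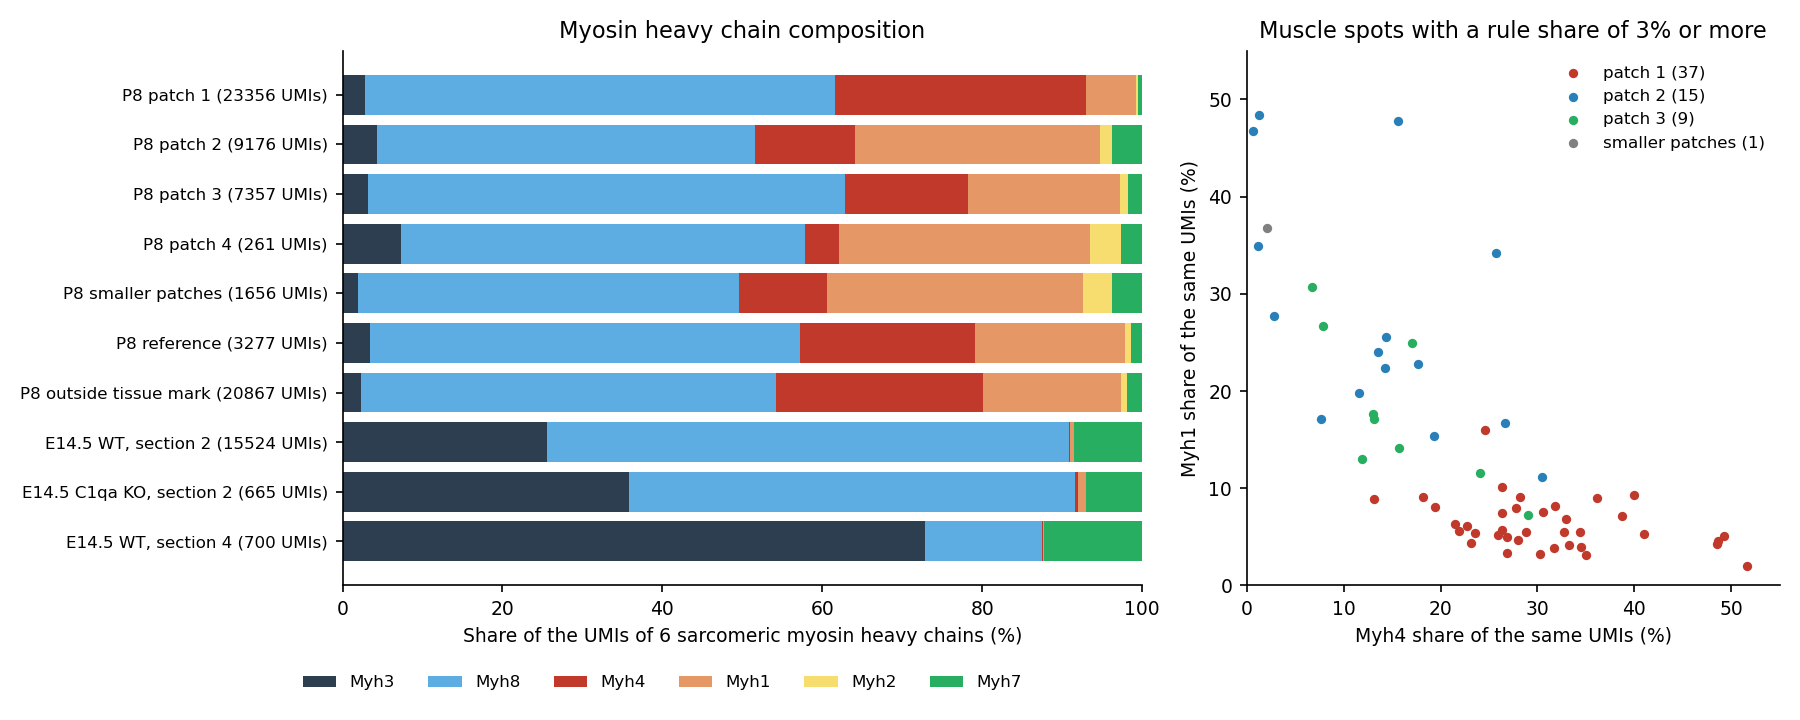
Left, bars give the share of the UMIs of 6 sarcomeric myosin heavy chains (horizontal, percent) in the P8 patches, the P8 reference spots, spots outside the tissue mark and spots of 3 E14.5 sections at or above the same rule share. Right, 1 point per P8 muscle spot with a rule share of at least 3%, with the Myh4 share on the horizontal and the Myh1 share on the vertical axis, both in percent. Patch 1 spots lie at a low Myh1 share of 2.05% to 16.02%, and Myh1 and Myh4 are nearly absent from the E14.5 bars.

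Slow fibre genes were gathered in few spots. The 10 muscle spots with the most Myh7 UMIs held 395 of the 669 (59.0%), whereas the 10 richest spots held 22.7% of Myh8, 32.7% of Myh4 and 27.2% of Myh3. Of these 10 spots, 5 lay in patch 2, 3 in patch 1 and 1 each in patch 3 and the smaller patches, in 4 connected groups. Myh7 held 3.71% (3.33 to 4.11) of the myosin UMIs in patch 2 and 0.565% (0.473 to 0.670) in patch 1. Another 5 slow genes, the troponins Tnni1, Tnnt1 and Tnnc1 and the light chains Myl2 and Myl3, had 545 of their 1194 UMIs (45.6%) in their own 10 richest spots. Over the 62 spots at 3% or more, their summed CPM and that of Myh7 had a Spearman's rho of 0.78, which was 0.75 without the 2 spots farthest from the median of Myh7. Within patches it was 0.48 over 37 spots of patch 1, 0.81 over 15 of patch 2 and 0.85 over 9 of patch 3.

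The troponin pairs of slow and fast fibres were compared between patches in the same way. Over all muscle spots Tnni1 held 9.005% (8.11 to 9.96) of the UMIs of Tnni1 and Tnni2, the slow and fast inhibitory subunits. Tnnt1 held 2.68% (2.44 to 2.94) of the tropomyosin-binding pair with Tnnt3, and Tnnc1 0.754% (0.651 to 0.868) of the calcium-binding pair with Tnnc2. In patch 2 these shares were 15.5% (13.2 to 18.1), 4.59% (3.91 to 5.35) and 1.63% (1.304 to 2.00), and in patch 1 6.01% (5.02 to 7.13), 1.35% (1.12 to 1.60) and 0.314% (0.229 to 0.419). The 3 troponin pairs thus had the same order between these patches as Myh7, which the calsequestrin pair described below did not share.

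All 7 fast thin filament and light chain genes were at least 2-fold higher in muscle spots, and 6 of them at least 32-fold. Tnnc2 stood at a log2 ratio of 6.64, Tnnt3 at 6.59, Mylpf at 6.57 and Tnni2 at 6.33, and the fast Z-disc protein Actn3 and the fast myosin-binding protein Mybpc2 at 6.61 and 6.36. Tpm1, a tropomyosin used by many cells, stood lower at 3.49 (3.45 to 3.53), with 8651 UMIs in reference spots. Of the 7 slow counterparts, 6 were at least 32-fold higher, among them Mybpc1 at 6.56, Myl2 at 5.82 and Myl3 at 5.34. The exception was Tpm3, at -0.13 (-0.30 to 0.04), a tropomyosin that most cells use. Tnnt2 and the atrial and fetal light chain Myl4, which fetal skeletal muscle shares with heart, were also present, at 5.72 and 4.42. Mybph, a myosin-binding protein, stood at 6.90.

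Of 29 structural and turnover genes of the sarcomere with enough counts, all were at least 2-fold and 28 at least 32-fold higher, with a median log2 ratio of 6.39. Ldb3 of the Z-disc stood at 6.83, Ttn at 6.70, Des at 6.39 and Tpm2, the beta tropomyosin, at 5.57 (5.50 to 5.64). Ldb3 had 1886 UMIs in muscle spots against 134, and Tpm2 10871 against 1854. Fbxo32, a ubiquitin ligase of muscle wasting, was the single member below 32-fold, at 1.11 (0.30 to 1.86) with 19 UMIs in muscle spots, and is named after its value was seen.

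Calcium handling and membrane excitation genes followed the sarcomere. Of 23 with enough counts, 22 were at least 2-fold and 19 at least 32-fold higher, with a median log2 ratio of 6.46. Atp2a1, the fast calcium pump of the sarcoplasmic reticulum, ran from 447 CPM through a median of 7443 to 13390 over muscle spots, and 106 of them lay above the highest reference spot. Casq1, which stores calcium, stood at 6.74, with 4985 UMIs against 378. It ran from 277 CPM through a median of 2935 to 5308 over muscle spots. Pvalb, the calcium buffer of fast fibres, stood at 6.44 with 3244 UMIs. Atp2a2, the pump of slow fibres and of many other cells, lay within 2-fold at 0.91 and held 4.07% (3.74 to 4.41) of the UMIs of the pump pair in muscle spots, against 70.5% (68.9 to 72.0) in reference spots. Casq2, the slow and cardiac form of calsequestrin, held 24.98% (23.9 to 26.0) of its pair. Its share was 26.1% (24.7 to 27.5) in patch 1 and 24.3% (22.1 to 26.6) in patch 2. That order is opposite to that of Myh7, and the intervals overlap. The share of Atp2a2 in the pump pair was 2.94% (2.58 to 3.34) in patch 1 and 5.08% (4.30 to 5.94) in patch 2.

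**Figure D4:**
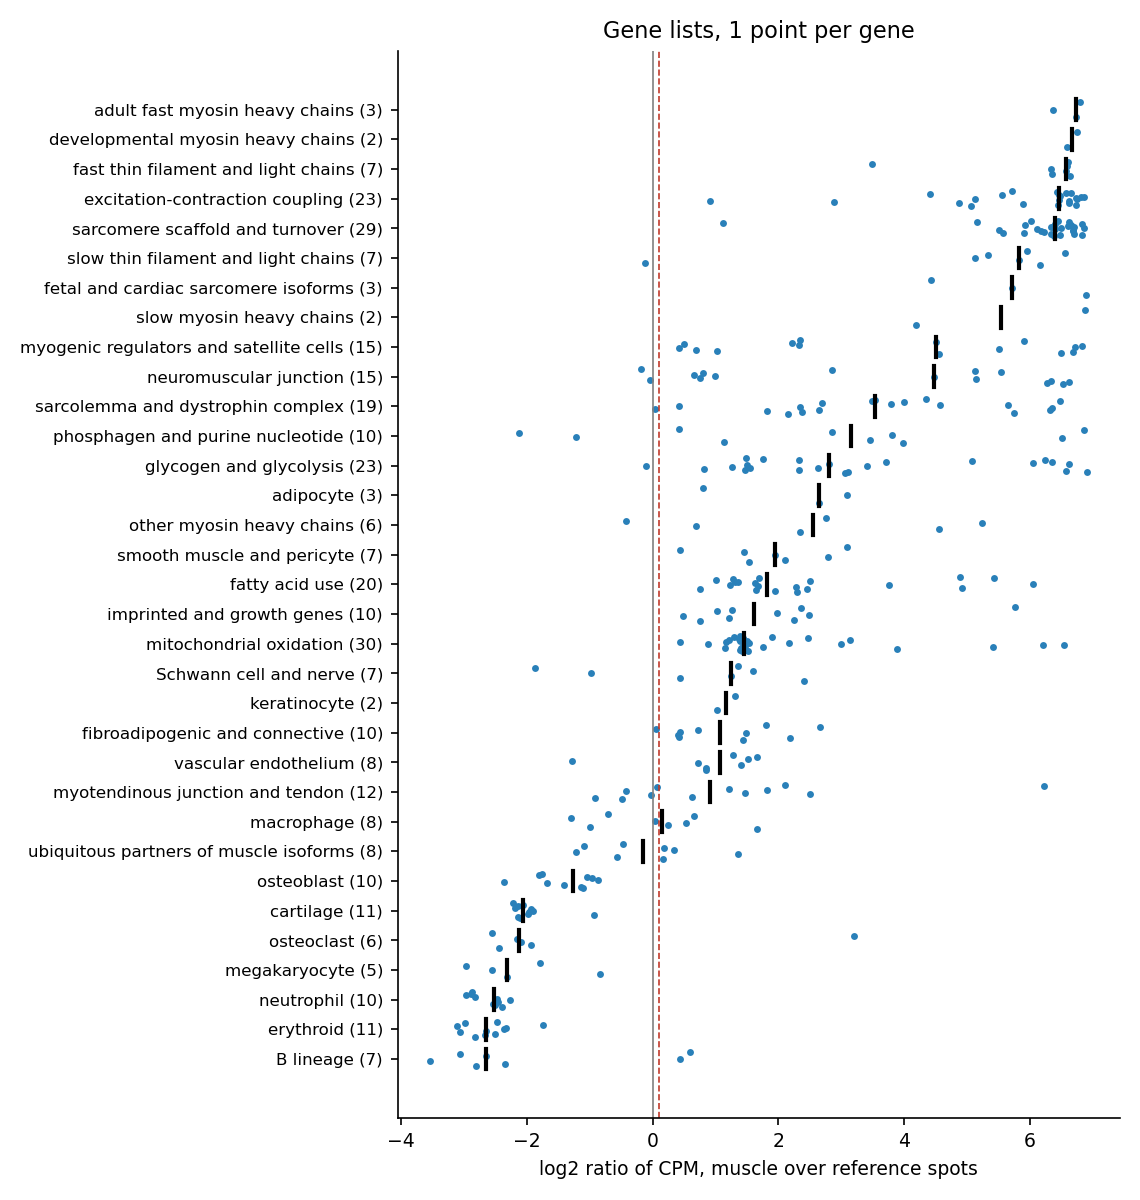
Log2 ratio of CPM in muscle over reference spots (horizontal) for the genes of each list, 1 point per gene with at least 10 counts, with the number of genes in brackets, black bars at the list medians and a dashed line at the median of all genes, 0.10. Sarcomere and calcium lists lie near 6.5, glycolytic and mitochondrial lists spread from the background to that edge, and blood, cartilage and bone lists lie below 0.

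Genes of energy metabolism spread over a wider range. Of 23 glycogen and glycolysis features with enough counts, 21 were at least 2-fold and 7 at least 32-fold higher, with a median log2 ratio of 2.80. The muscle forms stood near the sarcomere genes, with the mutase Pgam2 at 6.62, the glycogen phosphorylase Pygm at 6.25 and the enolase Eno3 at 6.04. Eno3 ran from 0 CPM in 1 muscle spot through a median of 3825 to 8521, and 104 of the 108 lay above the highest reference spot. Pygm ran from 0 through 1572 to 2951 CPM. Enzymes that many tissues use stood lower, with Aldoa at 3.41 and Tpi1 at 2.33. Their reference sums held 4704 and 4255 UMIs, against 870 of Eno3. Aldoa was listed under 2 features, and its second one had only 3 UMIs in muscle spots. Gapdh had 3 UMIs in muscle and 6 in reference spots, under the limit of 10 counts, and was not counted.

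Of 30 mitochondrial genes, 28 were at least 2-fold higher, but only 3 at least 32-fold, and the median log2 ratio was 1.46. Atp5b and Atp5a1, catalytic subunits of the ATP synthase, stood near that median at 1.39 and 1.29, with 1773 and 2468 UMIs in muscle spots. The 3 past 32-fold were the striated muscle subunits of cytochrome oxidase, Cox8b at 6.54, Cox6a2 at 6.21 and Cox7a1 at 5.41. Cox6a2 was missing from 3 muscle spots and had a median of 1282 CPM in them. Of 20 fatty acid genes, 19 were at least 2-fold higher with a median of 1.82, with the muscle carnitine transferase Cpt1b at 5.43, the fatty acid carrier Fabp3 at 4.92, the dehydrogenase Acadl at 2.30, the transporter Cd36 at 2.27 and Fabp4 of fat and vessels at 1.95. Mb, the oxygen store myoglobin, had only 69 UMIs in muscle spots and 9 in reference spots.

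Where a muscle isoform has a partner used by most cells, the partner did not share the ratio. Cox6a1 stood at -0.56, Cox8a at 0.18, Slc25a5 at -0.47, Eno1 at 0.16 and Cpt1a at 0.34, all within 2-fold, Pgam1 was lower at -1.09 and Cox7a2 higher at 1.36. Slc25a4, the ADP carrier of muscle and heart, stood at 3.00 and held 93.5% (92.8 to 94.1) of the UMIs of its pair in muscle spots, against 56.4% (55.5 to 57.4) in reference spots. Eno3 held 94.4% (93.8 to 94.9) of its pair against 22.2% (20.9 to 23.5), and Pgam2 95.7% (94.9 to 96.4) against 9.61% (8.43 to 10.9). Among the oxidase pairs, Cox6a2 held 86.5% (85.2 to 87.7) in muscle and 5.54% (4.91 to 6.22) in reference spots, Cox8b 66.9% (64.5 to 69.2) and 2.40% (1.94 to 2.93), and Cox7a1 58.6% (55.7 to 61.6) and 7.91% (6.61 to 9.37). In the 62 spots at a rule share of 3% or more, Cox8b held 72.1% (69.6 to 74.6) of its pair, and in the 46 spots below 3% it held 47.2% (41.8 to 52.7).

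Phosphate transfer had genes on both sides. Ckmt2, the mitochondrial creatine kinase of sarcomeres, stood at 6.86, while the adenylate kinase Ak1 and the creatine synthesis enzymes Gatm and Gamt stood at 3.98, 3.46 and 3.80. Ckb, the brain-type creatine kinase, was lower in muscle spots at -2.13 (-2.49 to -1.79), with 71 UMIs against 2515. Ampd3, the erythrocyte deaminase, was lower at -1.21 (-1.89 to -0.61).

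Genes of the neuromuscular junction fell into separate ranges. Of 15, 9 were at least 2-fold and 7 at least 32-fold higher, with a median log2 ratio of 4.48. The receptor subunits Chrna1, Chrnb1 and Chrnd had 242, 144 and 34 UMIs in muscle spots and stood at 6.61, 5.54 and 6.52. Musk, the receptor kinase that gathers them and is named after its value was seen, stood at 5.15 with 57 UMIs. Genes that nerve or other cells also use lay within 2-fold, among them Ache, which breaks down acetylcholine, at 0.99 and the adhesion molecule Ncam1 at 0.79.

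Both the fetal and the adult receptor subunit were counted. Chrng had 38 UMIs and Chrne 13 in muscle spots, so that the fetal subunit held 74.5% of the pair with an interval of 60.4 to 85.7, and reference spots held 4 and 3. In patch 1 the counts were 19 and 2 (90.5%, 69.6 to 98.8), and in patch 2 they were 10 and 10 (interval 27.2 to 72.8). These intervals rest on few UMIs and overlap at their ends, and the difference between the patches was not tested. The promoters of both genes, printed above, held an E-box, and that of Chrne alone held an N-box.

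The dystrophin complex, which ties the fibre's skeleton to its matrix, had 17 of 19 genes at least 2-fold higher and a median log2 ratio of 3.54. Cav3, the caveolin of muscle, stood at 6.33, and Sgcb and Dag1, which many tissues share, at 2.38 and 2.35. Muscle spots held 357 UMIs of Cav3 and 566 of Dag1, and reference spots 36 and 898. At the junction with tendon, 6 of 12 genes were at least 2-fold higher, with a median of 0.92. The tendon genes Tnmd and Thbs4 stood at 2.098 and 1.47, while the matrix genes Col12a1 and Fmod lay within 2-fold at -0.03 and -0.49. Tnmd was at 392.3 CPM (351 to 437) in patch 1, 767 (677 to 865) in patch 3 and 1065 (737 to 1488) in patch 4. Ankrd1, a stretch-responsive gene of striated muscle named after its value was seen, was the only member past 32-fold, at 6.22.

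Regulators of muscle formation were present at low counts. Of 15 with enough counts, 12 were at least 2-fold and 6 at least 32-fold higher, with a median log2 ratio of 4.50. Myog had 344 UMIs in muscle and 31 in reference spots (6.49), Myf6, a factor of mature fibres, had 267 and 19 (6.83). Mef2c and Mef2d, which many cells use, stood at 2.21 and 1.02. Pax7 had 28 UMIs in muscle spots and 5 in reference spots, a log2 ratio of 5.50 with an interval from 4.11 to 7.23. The fusion genes Mymk and Mymx had 140 and 59 UMIs and stood at 6.69 and 5.90. Myog was at 243 CPM (211 to 279) in patch 1 and Pax7 at 18.1 (10.1 to 29.8). The regular Myod1 feature held 0 counts in both sums.

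Of 10 imprinted and growth genes with enough counts, 8 were at least 2-fold higher, with a median log2 ratio of 1.61. Igf2 ran from 695 CPM through a median of 3035 to 5963 in muscle spots, but the highest reference spot reached 4705 and only 4 muscle spots lay above it. Dlk1 had a median of 2476 CPM in muscle spots and 170 in reference spots, and the highest reference spot, at 9785, was above all muscle spots. Igf2, a growth factor, stood at a log2 ratio of 2.49, Dlk1, a membrane protein of growing tissue, at 2.35, the cell cycle inhibitor Cdkn1c at 1.97 and Igfbp5, within 2-fold, at 0.75.

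RNA of other tissues was present in muscle spots. All 11 erythroid genes with enough counts were at least 2-fold lower, but still took 1.54% of the counts of muscle spots against 8.55% in reference spots, and all 10 neutrophil genes were lower, with 0.124% against 0.717%. Osteoblast genes took 5.30% against 10.8% and cartilage genes 0.892% against 3.96%, with 8 of 10 and 10 of 11 at least 2-fold lower. Of 6 osteoclast genes 5 were at least 2-fold lower and 1 higher, Calcr at 3.20 on 17 UMIs. Of 7 Schwann cell and nerve genes with enough counts, 4 were at least 2-fold higher and 1 lower, Mbp at -1.87. Of 8 macrophage genes 6 lay within 2-fold, among them C1qa at 0.04, C1qb at 0.24 and C1qc at 0.54, while Mrc1 of resident macrophages was higher at 1.66 and Cd68 lower at -1.29. Connective tissue lists had 5 of 10 and smooth muscle and pericyte lists 6 of 7 genes at least 2-fold higher, with Col3a1 at 1.44, Col15a1 at 1.48, Acta2 of smooth muscle at 3.097 and Tagln at 2.78. Patch 2 held 208 of the 367 muscle-spot UMIs of Acta2 and 126 of the 176 of Tagln. It held 112 of the 580 of Smtn and 80 of the 320 of Rgs5, which are in the same list. Of 3 adipocyte genes with enough counts, 2 were at least 2-fold higher, Cfd at 3.09 and Plin1 at 2.64, and Adipoq lay within 2-fold at 0.81. Patch 1 held 55 of the 62 muscle-spot UMIs of Cfd, 41 of the 44 of Plin1 and 42 of the 48 of Adipoq. Of 8 endothelial genes 4 were at least 2-fold higher, 1 lower and 3 within 2-fold, with Cdh5 at 1.51, Egfl7 at 0.85, Kdr at 0.73 and Aqp1, which red cells also carry, at -1.29. Col3a1 ran from 4250 to 24919 CPM in muscle spots and from 199 to 36932 in reference spots, so the ranges overlapped throughout. The part of these tissues in the muscle values was not tested.

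Among genes of no list, the largest ratios at 50 CPM or more in muscle spots belonged to A930003A15Rik at 7.26, Ppp1r27 at 7.21, Atp1b4 at 7.12, Yipf7 at 7.03, Cacng6 at 7.005 and Prkag3 at 6.98. Atp1b4, a sodium pump subunit relative found in muscle nuclei, had the most counts of these, 1151 against 67. Prkag3 encodes the gamma subunit of AMP kinase in fast muscle. Hhatl, Smtnl1, Arhgap36, Sypl2, Asb12 and Tmod4 followed at 6.95, 6.92, 6.84, 6.76, 6.75 and 6.64. Several of these rest on few reference counts, as with 5 for A930003A15Rik, whose interval ran from 5.99 to 8.92. The lowest ratios at 200 CPM or more in reference spots were those of Ctse, an acid protease, at -3.12, the erythroid genes Hemgn at -2.98 and Ermap at -2.83 and of the myeloid gene Plac8 at -2.75.

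Muscle RNA was measured beyond the muscle spots. Of the sarcomere genes, 34 that were at least 32-fold higher, chosen after their values were seen, took 6.58% of the UMIs of muscle spots, 0.686% in the 69 in-tissue spots 1 array step away, 0.386% at 2 steps, 0.231% at 3 steps and 0.0422% at 13 to 20 steps. The share was lower in each further bin up to 20 steps. Spots and genes were both chosen by muscle levels against reference spots, so a fall with distance was in part fixed by the choice. Reference spots lay at a median of 9 steps from the nearest muscle spot, and 4 of the 542 touched one. Depth did not follow this order, with median UMIs per spot of 14642 at 1 step and 25696 at 13 to 20 steps. Inside the tissue mark the developmental myosin share was 62.4% (60.5 to 64.3) at 1 step and 58.3% (56.0 to 60.5) at 2 steps. It was 53.5% (50.5 to 56.5) at 9 to 12 steps and 52.0% (47.0 to 56.9) at 13 to 20 steps. Outside the mark it was 43.6% (42.5 to 44.8) at 9 to 12 steps.

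**Figure D5:**
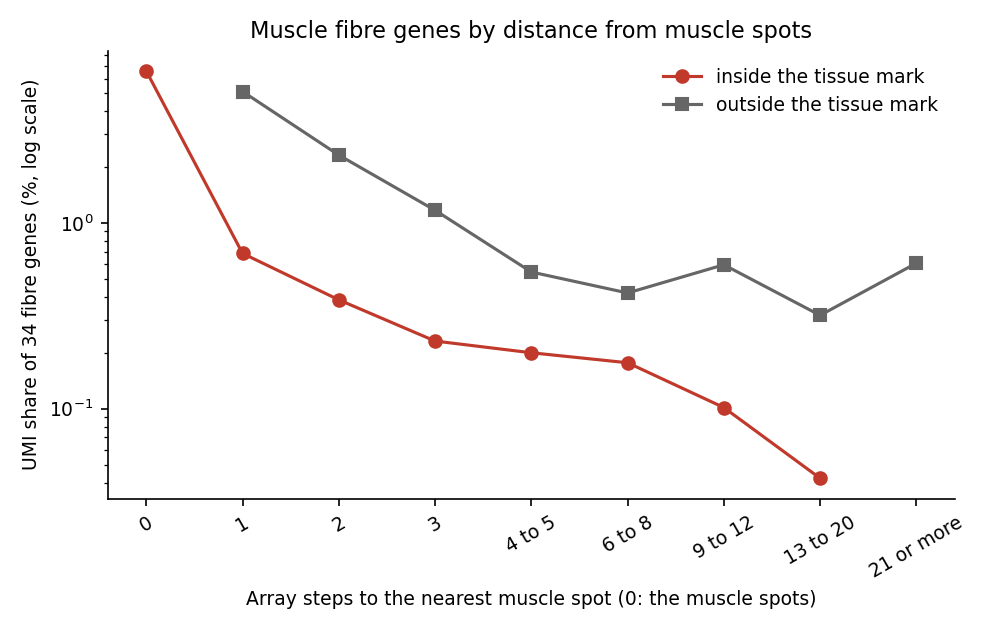
Share of UMIs from 34 sarcomere genes (vertical, percent on a log scale) by the number of array steps to the nearest muscle spot (horizontal), for spots inside and outside the tissue mark, in bins of at least 20 spots. Inside the mark the share runs from 6.58% in muscle spots to 0.0422% at 13 to 20 steps, and outside it starts at 5.11% at 1 step. Outside the mark it is 0.420% at 6 to 8 steps, 0.596% at 9 to 12, 0.318% at 13 to 20 and 0.608% at 21 or more.

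In the other sections, the same rule share of 0.675% or more was found in 109 spots of 3 sections, all labelled fetal liver at E14.5 and all from the set of wild-type and C1qa knockout sections. Wild-type section 2 held 88 of them, C1qa knockout section 2 held 18 and wild-type section 4 held 3, and the highest share in the 10 sections without such a spot was 0.357%. Those sections came from other mice, name another software version in their headers and carry another feature table, so their values stand beside those of the P8 muscle with no comparison drawn. The threshold counts only the regular Acta1 feature of P8, so it need not mark the same amount of muscle RNA there. In the 88 spots of wild-type section 2, Myh3 held 25.5% (24.8 to 26.2) of 15524 myosin UMIs, Myh8 65.3% (64.6 to 66.1), Myh7 8.52% (8.08 to 8.97), Myh1 0.425%, Myh4 0.155% and Myh2 0.0451%. In knockout section 2 Myh3 held 35.8% (32.1 to 39.6) and Myh8 55.8% (51.9 to 59.6) of 665 UMIs. In wild-type section 4 Myh3 held 72.9% (69.4 to 76.1) and Myh8 14.6% (12.04 to 17.4) of 700 UMIs, which came from only 3 spots.

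The isoform pairs of these E14.5 spots stood as follows beside the P8 values already given. Tnni1 held 68.9% (66.8 to 71.0) of its pair in wild-type section 2, 81.0% (73.0 to 87.4) in knockout section 2 and 96.6% (93.3 to 98.5) in wild-type section 4. Chrng had 87, 12 and 22 UMIs in these sections and Chrne none, which put the lower limits of the Chrng share at 95.8%, 73.5% and 84.6%. Cox8b held 39.4% (34.04 to 44.9), 28.6% (13.2 to 48.7) and 7.02% (1.95 to 17.0) of its pair.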

How the data were processed

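The data were 10x Genomics Visium sections, read by probe pairs, of which the P8 leg bone was analysed and the other 13 served for a search for muscle spots. Counts are UMIs per gene and spot as deposited by the authors, raw and not normalized; the matrix header names Cell Ranger 4, and the submitters' processing notes name Space Ranger and the mouse build mm10. Positions, spot barcodes and gene names were also deposited. Spots with the tissue mark and at least 1000 genes were kept, 1085 in P8 with 1860 to 97432 UMIs each (median 16659). The rule share was computed with Acta1, Ckm and Myl1, the top 10% were taken as muscle and the lower 50% as reference, and counts were summed without these genes and without 304 features marked as deprecated. The CPM ratio was taken with a floor of 3 counts where a sum was 0, and not where both were at or under 3. Ratio, share and level intervals are exact 95% binomial and Poisson intervals, which cover counting error only, since the section is the only one of this age. Genes with under 10 counts in both sums were left out of counts of genes. Patches are muscle spots joined through the 6 neighbours of a spot on the array.

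The genes named were drawn from the skeletal myosin heavy chains, the thin filament and light chain isoforms, the acetylcholine receptor subunits, Pax7, Myod1, Myog, Mymk, Mymx, 7 isoform pairs, up to 4 members of each other list highest in CPM in muscle spots, members past 2-fold against the median of their list, and, of genes in no list, the 12 largest ratios at 50 CPM or more in muscle spots and the 8 smallest at 200 CPM or more in reference spots. Not all of these are described above. The members and lists were chosen with earlier results of these data known. Pygm, Atp2a2, Fbxo32, Musk, Ankrd1 and Gapdh lie outside this rule and were chosen after their values were seen, as was the list of 34 sarcomere genes. Promoters were taken from RefSeq (GRCm38.p6) by symbol. The ratio and its interval were run on simulated Poisson sums with known folds. These held no variation between spots, so they cannot show how the intervals behave where spots differ. Work was done in python 3.11.15 with numpy 2.4.6, scipy 1.17.1, pandas 2.3.3 and matplotlib 3.10.9.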

Additional observations from a re-analysis of the deposited data

Results flagged for a closer look

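Muscle RNA was also counted outside the tissue mark of the P8 section. Of 1181 spots without the mark and with at least 1000 genes, 167 had a rule share at or above the threshold of the muscle spots, 36 of them at 3% or more and the highest at 6.23%. They held 1628 to 35552 UMIs, with a median of 5195, and 71 touched a muscle spot. Of their 20867 UMIs of the 6 myosin heavy chains, 54.2% (53.5 to 54.8) came from Myh3 and Myh8, 25.9% from Myh4, 17.4% from Myh1 and 1.84% from Myh7. What set them outside the mark was not tested.

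Features marked as deprecated, left out above, took 3.42% of the UMIs of muscle spots and 0.582% of those of reference spots. Of the 153 with at least 10 counts, 6 were at least 32-fold higher in muscle spots. The Acta1 feature had 51289 counts there (log2 ratio 6.65), Actc1, the cardiac actin, 1623 (6.71), Dhrs7c 434 (6.78), the muscle regulator Myod1 94 (6.99), Vgll2 55 (5.80) and Xirp2 47 (6.57). The regular features of Actc1, Dhrs7c, Myod1, Vgll2 and Xirp2 held no counts in these spots.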

How the results depend on the processing

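Under the 12 alternatives run, 1710 to 3564 genes were at least 2-fold higher and 1309 to 2453 at least 2-fold lower, all within 1.5 times of the reported counts. No paired analysis was possible because the results come from 1 section and from no test, and for the same reason no replicate could be left out. With the top 5% of spots the median log2 ratio was 3.09 for glycolysis, 1.70 for mitochondrial and 6.78 for calcium handling genes, and with the top 20% it was 2.25, 1.10 and 5.89. With all other spots as reference the calcium handling median was 5.12. In the 19 muscle spots whose neighbours were all muscle, the developmental myosin share was 57.4%, the Myh7 share 1.92%, the Chrng share 90.9%, the mitochondrial median 1.67 and the junction median 3.44. The Myh7 share was 1.75% as a mean over spots. With the median ratio set to 1 the glycolysis and mitochondrial medians were 2.52 and 1.17, and the genes at least 2-fold higher made up 41.1% of those past 2-fold, against 58.0% as reported. Of 1988 values of named genes under these alternatives, 1377 moved by no more than the counting error of the reported value, 609 moved by more, and 2 reversed: Bglap2 and Bglap stood at 0.048 and 0.022 with the top 20% of spots, against -1.10 and -1.13. The causes were not tested. Alternatives with deprecated features included, or with reference spots at least 3 steps from muscle, were chosen after seeing the data. Low counts limit Chrng, Chrne and Pax7.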
